A study of Arabidopsis thaliana with 16 samples.

Results

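A set of 267 Arabidopsis thaliana genes combined low RNA with a chromatin peak. Their RNA was at least 2-fold lower in the line EIN2C-EIN3DB than in Col, and a peak from ethylene-treated EIN2C-EIN3DB/Col-0 seedlings lay in or near them. Members were chosen from the authors' deposited table for that line, which lists 5686 genes, 2799 of them nuclear genes at a log2 fold of -1 or below. A peak had to overlap the span that the table gives as the gene's locus, extended by 1000 bp on both sides, and 267 of the 2799 genes (9.54%) met this. The fall in RNA and the presence of the peak are therefore the choice itself, and both are described here with no test.

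Ethylene is a gaseous plant hormone sensed by receptors in the endoplasmic reticulum. Without ethylene the receptors keep the kinase CTR1 active, and CTR1 phosphorylates the membrane protein EIN2. With ethylene the carboxyl-terminal part of EIN2 (EIN2C) is released and reaches the nucleus, and the transcription factors EIN3 and EIL1, which the F-box proteins EBF1 and EBF2 otherwise mark for destruction, accumulate and switch on ethylene genes. Dark-grown seedlings answer ethylene with a short, thick hypocotyl, a short root and a tightened apical hook.

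RNA came from 3 lines in the ein3-1 eil1-1 double mutant, which lacks intact EIN3 and EIL1: EIN2C-EIN3DB, by its name EIN2C joined to the EIN3 DNA binding domain, the same fusion with the K245N substitution (EIN2C-EIN3DB-K245N), and EIN2 with the S645A substitution (EIN2-S645A). K245N lies in the DNA binding domain of EIN3 and is known to impair its binding to DNA, and S645A removes a site that CTR1 phosphorylates. Each line had 2 libraries from air, which the authors combined into 1 value per gene. EIN2 antibody chromatin immunoprecipitation (ChIP-seq) came from EIN2C-EIN3DB in Col-0 (1 ethylene library and 1 titled air) and from EIN2C-EIN3DB in ein3-1 eil1-1 (2 ethylene and 2 air libraries), with 4 inputs. All were 3-day-old whole seedlings grown in the dark at 24 °C and given air or 10 ppm ethylene for 4 h. The Col RNA that stands behind every fold is not among the samples, and no source used here gives its treatment. Neither is an untransformed ein3-1 eil1-1 RNA library, so a fold over Col cannot separate the transgene from the double mutation. No source used here gives the promoter of the transgenes or how many independent lines were used. RNA and the peaks that chose the members also come from different backgrounds, ein3-1 eil1-1 in air for RNA and Col-0 in ethylene for ChIP. Both backgrounds keep the resident EIN2 gene, so the antibody does not separate the fusion from EIN2 itself. In whole seedlings, fewer cells of a type and less RNA per cell cannot be told apart.

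The 2 Col-0 ChIP libraries kept 4713282 tags (ethylene) and 3743192 tags (titled air) after duplicates, with 0.56 and 0.61 of their tags redundant. The ein3-1 eil1-1 libraries kept between 6205149 and 10515608. The library titled air in Col-0 and its input carry a label of ethylene treatment, and the input of the Col-0 ethylene library carries a label of the ein3-1 eil1-1 background. Titles were followed, and every statement on ethylene against air in Col-0 rests on them and on 1 library each. The depth of the RNA libraries is unknown. Of 6 genes of greening, 5 were listed higher in each of the 3 lines, with summed levels of 10491 FPKM in EIN2C-EIN3DB, 8306 FPKM in EIN2C-EIN3DB-K245N and 20165 FPKM in EIN2-S645A. In EIN2C-EIN3DB 2 of 4 root hair markers (EXPA7 and RHD6) and 2 of 7 genes on the seed storage list (OLEO1 and OLEO2) were also listed higher. None of 5 stomatal markers was listed in EIN2C-EIN3DB or EIN2-S645A, and EPF2 was listed lower in EIN2C-EIN3DB-K245N, at 0 FPKM. On the seed storage list the symbol CRC was matched to AT1G69180, the carpel gene CRABS CLAW, which is not a seed storage gene. Seed storage markers listed higher numbered 4 in EIN2C-EIN3DB-K245N and 3 in EIN2-S645A. None of these 22 genes was a member or listed lower in EIN2C-EIN3DB, though another oleosin gene, OLEO3, is a member, at log2 -1.01 in the authors' deposited table. The part of these markers in the results was not tested.

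The members ran from transcripts at the limit of detection to abundant ones. Their levels in EIN2C-EIN3DB had a median of 16.3 FPKM, against 6.02 FPKM for the 2532 genes listed lower without a peak, and 28 members stood at 100 FPKM or more. At the low end, 4 members were listed at 0 FPKM, among them the cytochrome P450 gene CYP96A5. At the high end stood MLP28 with 1227 FPKM, XTH15, a xyloglucan endotransglucosylase gene of the cell wall, with 773 FPKM and GER3, a germin-like protein gene, with 752 FPKM. The 263 members with a level above 0 had a median log2 fold of -1.48 in the authors' deposited table, against -1.37 for the 2489 other lower genes with a level above 0. The authors' deposited table puts 70 members (26.2%) at a log2 fold of -2 or below, against 17.1% of the other lower genes, and 26 members at -3 or below. The authors' q-value was at most 0.0462 for any member.

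Just inside the limit of fold stood ANL2 at log2 -1.002, AT4G32060 at -1.004 and MLP28 at -1.01, per the authors' deposited table. Just inside the limit of distance stood the gibberellin-inactivating gene GA2OX6, whose peak began 971 bp from the locus, AT1G58410 at 957 bp and AT1G58400 at 953 bp. Just outside it, AT5G53320 had a peak at 1020 bp, AT2G30230 at 1047 bp and AT3G02555 at 1055 bp.

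In the EIN2C-EIN3DB table the share of genes with a peak was larger for lower genes, and larger in the classes of larger fall. The 267 members are 9.54% of the genes listed lower in EIN2C-EIN3DB, against 128 of the 2797 genes listed higher (4.58%) that had a peak. Lower genes with a log2 fold of at least 3 in size had a peak in 16.1% of cases, those between 2 and 3 in 12.9%, those between 1.5 and 2 in 9.61% and those between 1 and 1.5 in 8.18%. For genes listed higher the same classes gave 6.13%, 5.33%, 4.14% and 4.09%. Over their whole tables, 9.71% of lower and 7.14% of higher genes had a peak in EIN2C-EIN3DB-K245N, and 7.76% and 6.98% in EIN2-S645A. In the EIN2C-EIN3DB-K245N table the shares among lower genes, in the same order of classes, were 18.1%, 10.6%, 8.29% and 8.96%, against 9.47%, 7.67%, 8.60% and 5.81% among higher genes. In the EIN2-S645A table they were 8.70%, 7.13%, 7.47% and 8.11%, against 7.22%, 6.47%, 6.96% and 7.31%. In these tables the share did not grow steadily with the fall, and in EIN2C-EIN3DB-K245N the higher genes of 1 class exceeded the lower genes. All 3 tables share Col and the same peak list, so the pattern in one is not independent of the pattern in another.

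**Figure D1:**
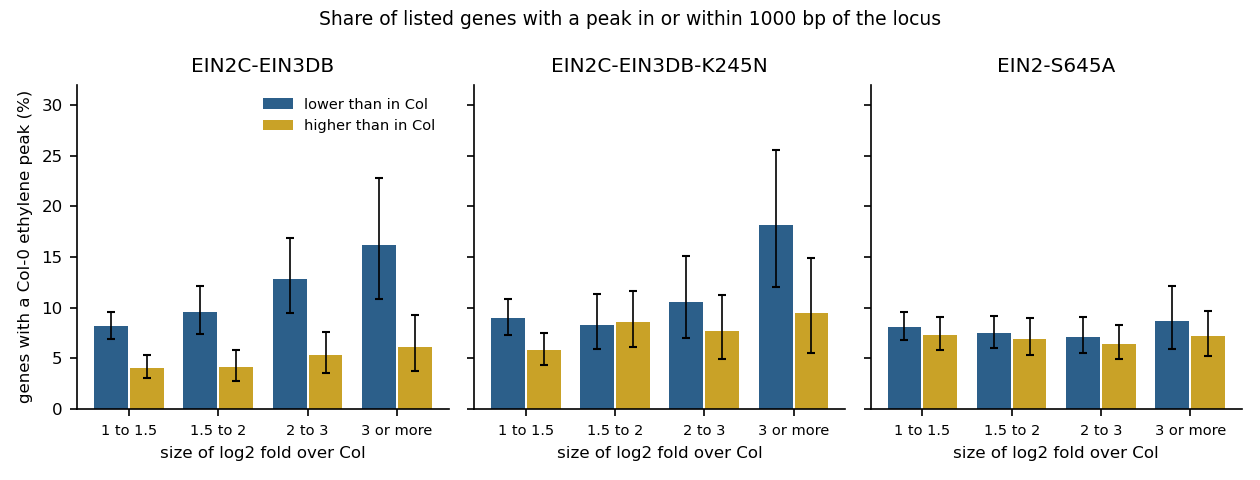
Share of listed genes (percent, vertical axis) with a Col-0 ethylene peak in or within 1000 bp of the locus, by the size of the log2 fold over Col, in each line's table. Bars are genes lower (blue) or higher (yellow) than in Col, and lines are exact 95% binomial intervals, which cover counting error only. In EIN2C-EIN3DB the blue bars run between 8.18% and 16.1%, and in EIN2-S645A all bars lie between 6.47% and 8.70%.

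RNA level moved with the presence of a peak. Among genes lower in EIN2C-EIN3DB, 57.1% of the 49 genes at 100 FPKM or more had a peak, 14.95% of the 923 genes between 10 and 100 FPKM, 5.50% of the 1619 between 1 and 10 FPKM and 5.77% of the 208 below 1 FPKM. Among genes listed higher, the 3 upper classes gave 11.2%, 2.92% and 2.54%. The share was larger among lower genes in each class that both directions filled. These classes use the level in EIN2C-EIN3DB, which the change itself shifts. They therefore do not match lower and higher genes for their level in Col. By locus length, lower genes with a locus of at most 1500 bp had a peak in 13.6% of cases and those over 3000 bp in 8.62%, against 5.31% and 4.49% of higher genes. Counted per length of sequence searched, there were 28.6 gene and peak pairs per Mb at lower genes and 14.1 per Mb at higher genes. The genome held 12.7 distinct peaks per Mb. Pairs count a peak once for each gene it overlaps, also at a window edge, so they are not a like measure to the genome value. The part of RNA level in the choice of members was not tested.

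The 267 members held 391 distinct peaks, 25.9% of the 1510 peaks of the Col-0 ethylene library. Peak values are those of the authors' peak caller. Most members (181) had 1 peak, 45 had 2, 23 had 3 and 18 had 4 or more. The largest number, 6, was reached by EIN2, by HLS1, an acetyltransferase-like gene required for the apical hook, by the formate dehydrogenase gene FDH and by AT2G15880. At HLS1 the summits lay along the gene, with fold enrichments over input between 3.03 and 4.12. FAR1, a fatty acid reductase gene, had 5 peaks, with fold enrichments between 2.54 and 5.15. The elongase gene KCS1 had 4 inside its locus, between 2.64 and 3.87. Fold enrichment had a median of 3.101 at members, against 3.04 at the other 1119 peaks, and the median width was 155 bp, against 136 bp.

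Peak summits lay both inside the locus and on either side of it by coordinate. In 137 members (51.3%) at least 1 summit lay inside the locus, against 45.3% of higher genes with a peak. Of the 422 member and peak pairs, 232 had their summit inside the locus, 97 on its low-coordinate side and 93 on its high-coordinate side. Of the inside summits, 87 (37.5%) lay in its central stretch when the locus is cut into 3 equal parts. Summits outside lay a median of 352 bp from the locus, and 122 of those 190 lay within 500 bp. The strand of the genes is not in the tables used here, so sides are by coordinate and not upstream or downstream. Genes of both strands are pooled, so a preference for the start or the end of genes cannot be read from these counts.

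**Figure D2:**
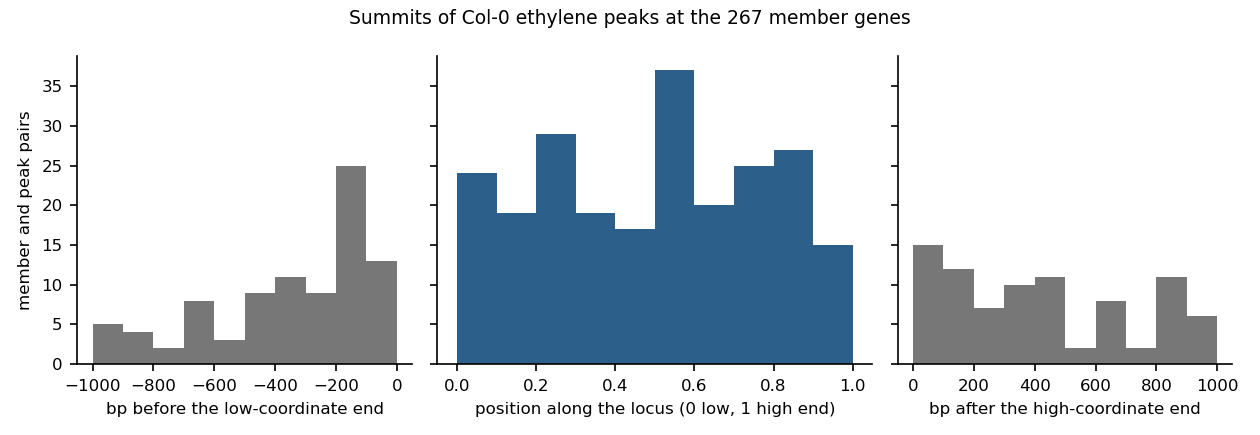
Positions of Col-0 ethylene peak summits at the 267 member genes, as numbers of member and peak pairs (vertical axis). The left and right panels give the distance in bp outside the low-coordinate and high-coordinate ends of the locus, and the middle panel gives the relative position inside it for 232 pairs. Outside, pairs are most frequent close to the locus, and 17 pairs with summits over 1000 bp away are not drawn.

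The strongest member peaks by fold enrichment lay at genes of varied function. EXO, a brassinosteroid-responsive gene that promotes cell expansion, had the strongest member peak at chr4:5740032-5742099 (TAIR10), with a fold enrichment of 13.6 and a -log10 p of 71.1. AT5G01210 followed with 11.2 at chr5:84620-86614. IAGLU, which encodes an auxin-conjugating glucosyltransferase, had 9.55 at chr4:8877090-8879248. PKDM7D, a histone demethylase gene, had 9.44 at chr1:2744231-2747526, with the summit 1888 bp outside its locus. CWLP, a cell wall linker protein gene, had 9.41 at chr3:7794737-7795893. At all of these except PKDM7D the summit lay inside the locus.

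The median RNA fold was close between classes of peak strength. The 55 members whose strongest peak had a -log10 p of 10 or more had a median log2 fold of -1.58 in the authors' deposited table, the 115 members between 5 and 10 had -1.45 and the 97 members between 3 and 5 had -1.48. EXO itself had 135 FPKM and a log2 fold of -1.67 per the authors' deposited table. AT3G51410, with the lowest fold among members above 0 FPKM, had -5.56 on the log2 scale per the authors' deposited table and a peak of fold enrichment 2.71. Its level in EIN2C-EIN3DB was only 0.488 FPKM and the authors' q-value was 0.0460, so this fold is uncertain.

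Ethylene signalling held 6 members. EBF2 had 16.9 FPKM in EIN2C-EIN3DB, 12.8 FPKM in EIN2C-EIN3DB-K245N and 43.8 FPKM in EIN2-S645A, at log2 folds of -3.30, -3.30 and -1.57 in the authors' deposited tables. It was low in both fusion lines and less so in EIN2-S645A, a difference that was not tested. EBF1 had 37.0 FPKM in EIN2C-EIN3DB and 19.3 FPKM in EIN2C-EIN3DB-K245N, at -1.34 and -1.88 in the authors' deposited tables, and was not listed in EIN2-S645A. CTR1 was listed lower in all 3 lines, at -1.26, -1.16 and -1.59 in the authors' deposited tables. EIL1 likewise stood at -2.86, -2.65 and -2.93 in the authors' deposited tables. EIN3 had 38.2 FPKM in EIN2C-EIN3DB at -2.06 and 7.88 FPKM in EIN2-S645A at -3.97, while EIN2 was listed in EIN2C-EIN3DB alone, with 43.6 FPKM at -1.44, per the authors' deposited tables. EIN2 and EIN3 sequences also make up the fusion, so RNA or ChIP tags of the resident gene and of the transgene cannot be told apart at these loci. EIN3 and EIL1 are also the genes mutated in the background of all 3 lines. Their folds over Col therefore cannot be told apart from an effect of the mutant alleles. As background for the gene lists, 9.7% of RefSeq nuclear protein-coding genes were listed lower and 9.93% higher in EIN2C-EIN3DB, 6.33% and 6.41% in EIN2C-EIN3DB-K245N, and 13.9% and 11.8% in EIN2-S645A. Of the 21 ethylene signalling genes on the list, 9 were listed lower and 2 higher in EIN2C-EIN3DB. Of the 9, 6 had a peak, against 9.54% of all lower genes, and the lower receptor genes ERS1, ERS2 and ETR2 had none.

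Ethylene response genes had some of the lowest folds of the set. ARL, an organ growth gene related to ARGOS, had 5.51 FPKM in EIN2C-EIN3DB, 4.32 FPKM in EIN2C-EIN3DB-K245N and 9.23 FPKM in EIN2-S645A, at log2 -4.64, -4.59 and -3.53 in the authors' deposited tables. ARGOS, which lowers ethylene sensitivity, had 7.98 FPKM in EIN2C-EIN3DB at -3.56 and 16.6 FPKM in EIN2C-EIN3DB-K245N at -2.10 per the authors' deposited tables, and was not listed in EIN2-S645A. Of the RAV family transcription factor genes, EDF3 stood at -2.99, -4.37 and -2.49 in EIN2C-EIN3DB, EIN2C-EIN3DB-K245N and EIN2-S645A in the authors' deposited tables. The family members RAV1 and TEM1 stood at -1.61 and -1.17 in EIN2C-EIN3DB in the authors' deposited table. HLS1 stood at -2.88, -3.57 and -2.54 in the same order of lines in the authors' deposited tables. A list of 30 genes bound by EIN3 or induced by ethylene had 18 lower and 1 higher in EIN2C-EIN3DB. Of the 18, 11 had a peak, PORB, EIN2, CTR1 and EBF2 among them, against 9.54% of all lower genes.

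**Figure D3:**
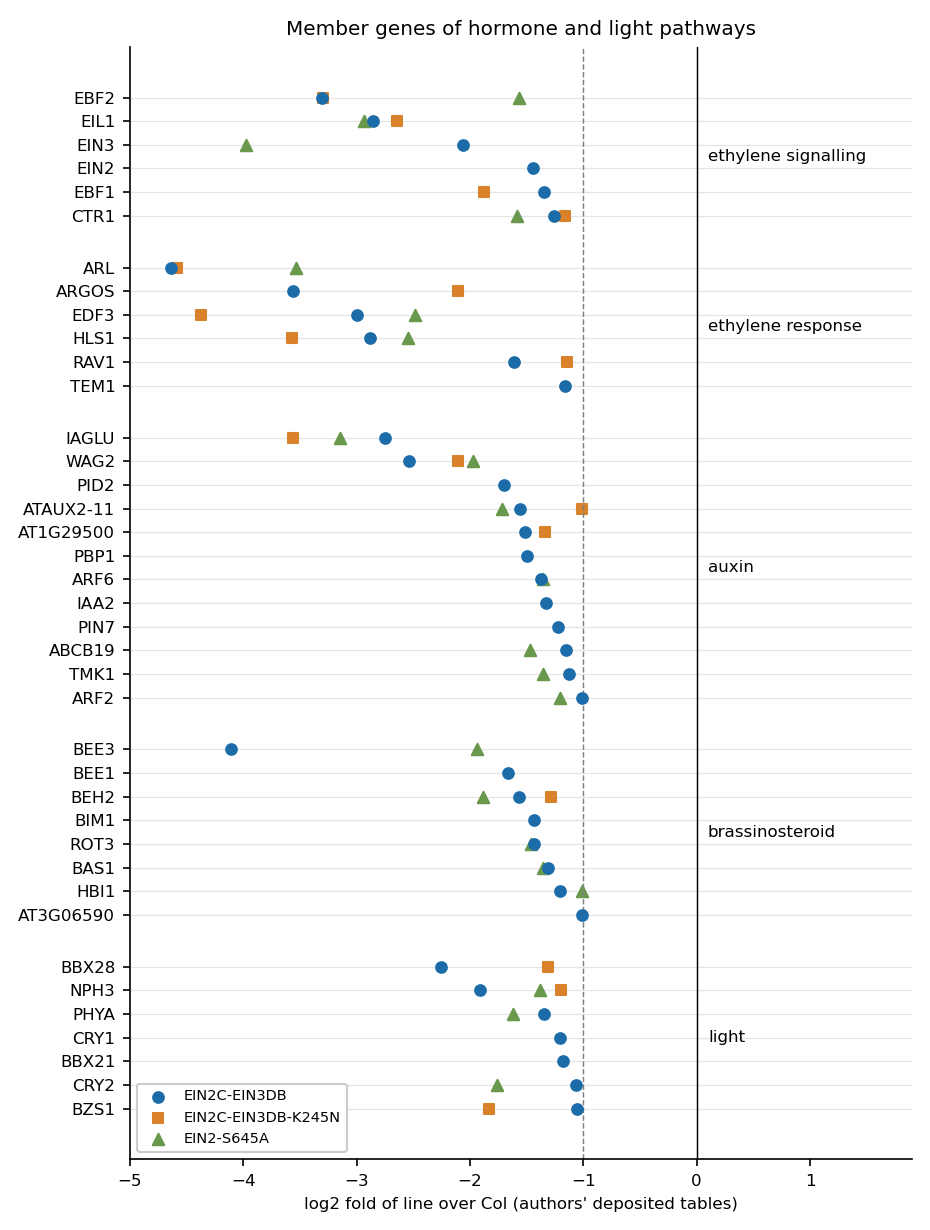
Log2 fold over Col (horizontal axis, authors' deposited tables) of member genes of hormone and light pathways in EIN2C-EIN3DB (circles), EIN2C-EIN3DB-K245N (squares) and EIN2-S645A (triangles). A missing symbol means that the gene was not listed in that table, 1 ethylene response member is not drawn, and the dashed line is the limit of -1. Among the ethylene genes the circles of ARL, ARGOS, EBF2 and EDF3 lie furthest to the left, EIN3 has a triangle at -3.97, and most brassinosteroid genes have no square.

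Auxin genes numbered 12 and covered conjugation, transport and response. IAGLU had 16.7 FPKM in EIN2C-EIN3DB, 7.18 FPKM in EIN2C-EIN3DB-K245N and 9.83 FPKM in EIN2-S645A, at log2 -2.75, -3.56 and -3.15 in the authors' deposited tables. WAG2, a kinase gene that acts on auxin efflux carriers, stood at -2.53, -2.10 and -1.98 in the authors' deposited tables. The efflux carrier gene PIN7 had 40.5 FPKM in EIN2C-EIN3DB at -1.22, and the transporter gene ABCB19 had 60.9 FPKM at -1.15, per the authors' deposited table. Response genes included IAA2 at -1.33 with 81.7 FPKM and 4 peaks, ATAUX2-11 (IAA4) at -1.56, and the auxin response factor genes ARF6 at -1.37 and ARF2 at -1.01 in the authors' deposited table for EIN2C-EIN3DB. Of these 12 members, 4 (33.3%) were listed lower in EIN2C-EIN3DB-K245N and 7 (58.3%) in EIN2-S645A, against 41.5% and 65.8% of all nuclear genes lower in EIN2C-EIN3DB. For all 267 members the shares were 52.8% and 66.7%. On the auxin list of 58 genes, 23 were lower and 4 higher in EIN2C-EIN3DB. Of the 23, 6 had a peak, against 9.54% of all lower genes.

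Brassinosteroid genes numbered 8. BEE3, a growth-promoting bHLH transcription factor gene, had 0.861 FPKM in EIN2C-EIN3DB and 3.00 FPKM in EIN2-S645A, at log2 -4.11 and -1.94 in the authors' deposited tables. Its relatives BEE1 and HBI1 stood at -1.66 and -1.21, and BEH2 and BIM1, which encode transcription factors of the hormone's response, at -1.56 and -1.44 in the authors' deposited table for EIN2C-EIN3DB. ROT3 and BAS1, which encode cytochrome P450 enzymes of brassinosteroid synthesis and inactivation, stood at -1.44 and -1.31 in that line in the authors' deposited table. Of the 8, 1 (12.5%), BEH2, was listed lower in EIN2C-EIN3DB-K245N, against 41.5% of all lower genes. Its log2 fold there was -1.29 per the authors' deposited table. In EIN2-S645A 5 (62.5%) of the 8 were listed lower, against 65.8%. Over all 267 members the shares were 52.8% and 66.7%. The brassinosteroid-responsive gene EXO was placed in the cell wall group. It was listed lower in EIN2C-EIN3DB-K245N, at -2.84 per the authors' deposited table, so the count of 1 depends on the grouping. None of the 8 members had a peak that overlapped a peak of the Col-0 library titled air, against 66 (24.7%) of all 267 members. The EXO peak did overlap one.

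Light signalling members were the photoreceptor genes PHYA, CRY1 and CRY2, the phototropism gene NPH3 and the B-box genes BBX28, BBX21 and BZS1. PHYA had 154 FPKM in EIN2C-EIN3DB and 99.3 FPKM in EIN2-S645A, at log2 -1.34 and -1.62 in the authors' deposited tables. CRY2 had 68.2 FPKM and 32.7 FPKM in these lines, at -1.07 and -1.76, and CRY1 stood at -1.21 in EIN2C-EIN3DB alone, in the authors' deposited tables. BBX28 had the lowest fold of the group, -2.26 in EIN2C-EIN3DB in the authors' deposited table. On the light list of 39 genes, 22 were lower and 3 higher in EIN2C-EIN3DB. Of the 22, 6 had a peak, against 9.54% of all lower genes.

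Plastid members numbered 9. PORB, which encodes a protochlorophyllide reductase of chlorophyll synthesis, had 133 FPKM in EIN2C-EIN3DB, 237 FPKM in EIN2C-EIN3DB-K245N and 268 FPKM in EIN2-S645A, at log2 -3.29, -2.05 and -1.91 in the authors' deposited tables. PCB2, another enzyme gene of chlorophyll synthesis, stood at -2.004, -1.72 and -1.59 in the authors' deposited tables. TOC159, a receptor gene of protein import into plastids, stood at -1.81, -1.86 and -3.20 in the authors' deposited tables. The small Rubisco subunit genes RBCS1B, RBCS3B and RBCS2B stood at -2.16, -1.57 and -1.24 in EIN2C-EIN3DB in the authors' deposited table. These copies are near-identical and adjacent, so reads may be split between them and their single values are uncertain.

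Genes of the cuticle and of fatty acids formed a group of 14. Very-long-chain elongase genes were KCS16 at log2 -2.20, KCS1 at -1.47, KCS20 at -1.31, KCS10 at -1.17 and KCS19 at -1.07 in EIN2C-EIN3DB in the authors' deposited table. KCS10 (192 FPKM), KCS1 (161 FPKM) and KCS20 (109 FPKM) were abundant in that line. The desaturase gene ADS1 stood at -3.74, -3.59 and -1.64 in EIN2C-EIN3DB, EIN2C-EIN3DB-K245N and EIN2-S645A in the authors' deposited tables. FAR1 stood at -3.19, -2.80 and -3.28 in the authors' deposited tables. The cuticle genes BDG1 and HTH stood at -2.10 and -1.93, the wax gene CER2 at -1.48 and MYB96, a regulator of wax synthesis, at -1.14 in EIN2C-EIN3DB in the authors' deposited table. Of the 14 members, 9 had at least 2 peaks, while 181 of all 267 members had 1 peak. Other groups had such members too, 6 of 7 in the light group and 5 of 7 in the ethylene response group. In EIN2C-EIN3DB-K245N 6 (42.9%) of the 14 were listed lower, against 41.5% of all lower genes. In EIN2-S645A 8 (57.1%) of the 14 were, against 65.8%. Over all 267 members the shares were 52.8% and 66.7%. CYP96A5 was listed at 0 FPKM in EIN2C-EIN3DB and EIN2-S645A and at 0.643 FPKM in EIN2C-EIN3DB-K245N.

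Cell wall members numbered 10 and were abundant, with a median of 124 FPKM in EIN2C-EIN3DB. EXO had 135 FPKM in EIN2C-EIN3DB, 45.2 FPKM in EIN2C-EIN3DB-K245N and 52.8 FPKM in EIN2-S645A, at log2 -1.67, -2.84 and -2.66 in the authors' deposited tables. The wall-remodelling genes XTH19, XTH31 and XTH15 stood at -1.91, -1.39 and -1.16 in EIN2C-EIN3DB in the authors' deposited table. CSI1, a partner of cellulose synthase, stood at -1.67 and GH9A1, the endoglucanase KORRIGAN, at -1.18 in EIN2C-EIN3DB in the authors' deposited table. CWLP had 372 FPKM in EIN2C-EIN3DB and 348 FPKM in EIN2C-EIN3DB-K245N, at -1.74 and -1.43 in the authors' deposited tables. On the cell wall list of 42 genes, 12 were lower and 6 higher in EIN2C-EIN3DB. Of the 12, 5 had a peak, against 9.54% of all lower genes.

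Chromatin members numbered 7. HAC1, a histone acetyltransferase gene, had 10.6 FPKM in EIN2C-EIN3DB and 5.21 FPKM in EIN2-S645A, at log2 -1.46 and -2.12 in the authors' deposited tables. SDG25, a histone methyltransferase gene, stood at -1.39, -1.07 and -2.10 in EIN2C-EIN3DB, EIN2C-EIN3DB-K245N and EIN2-S645A in the authors' deposited tables. MBD9 had -1.03 and -2.23 in EIN2C-EIN3DB and EIN2-S645A, and PKDM7D -1.02 and -1.60, per the authors' deposited tables. SDG25 was the 1 of 7 members (14.3%) listed in EIN2C-EIN3DB-K245N, against 41.5% of all lower genes, and 6 of 7 (85.7%) were listed lower in EIN2-S645A, against 65.8%. For all 267 members these shares were 52.8% and 66.7%. On the chromatin list of 48 genes, 14 were lower and 1 higher in EIN2C-EIN3DB. Of the 14, 1 had a peak, HAC1, against 9.54% of all lower genes.

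Other transcription factor members numbered 20. HEC2 and HEC1, bHLH genes of tissue patterning, stood at log2 -4.24 and -3.47 in EIN2C-EIN3DB, -4.96 and -3.45 in EIN2C-EIN3DB-K245N, and -3.81 and -2.24 in EIN2-S645A in the authors' deposited tables. GRF7, a growth-regulating factor gene, stood at -3.87, -3.85 and -4.40 and the homeobox gene WOX1 at -2.88, -2.75 and -3.78 in the authors' deposited tables. HSFA3, a heat shock factor gene next to CTR1 that shared its peak, stood at -2.56, -3.71 and -2.47 in the authors' deposited tables. Of these 20 members, 13 (65.0%) were listed lower in EIN2C-EIN3DB-K245N and 17 (85.0%) in EIN2-S645A, against 41.5% and 65.8% of all lower genes. Over all 267 members these shares were 52.8% and 66.7%.

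**Figure D4:**
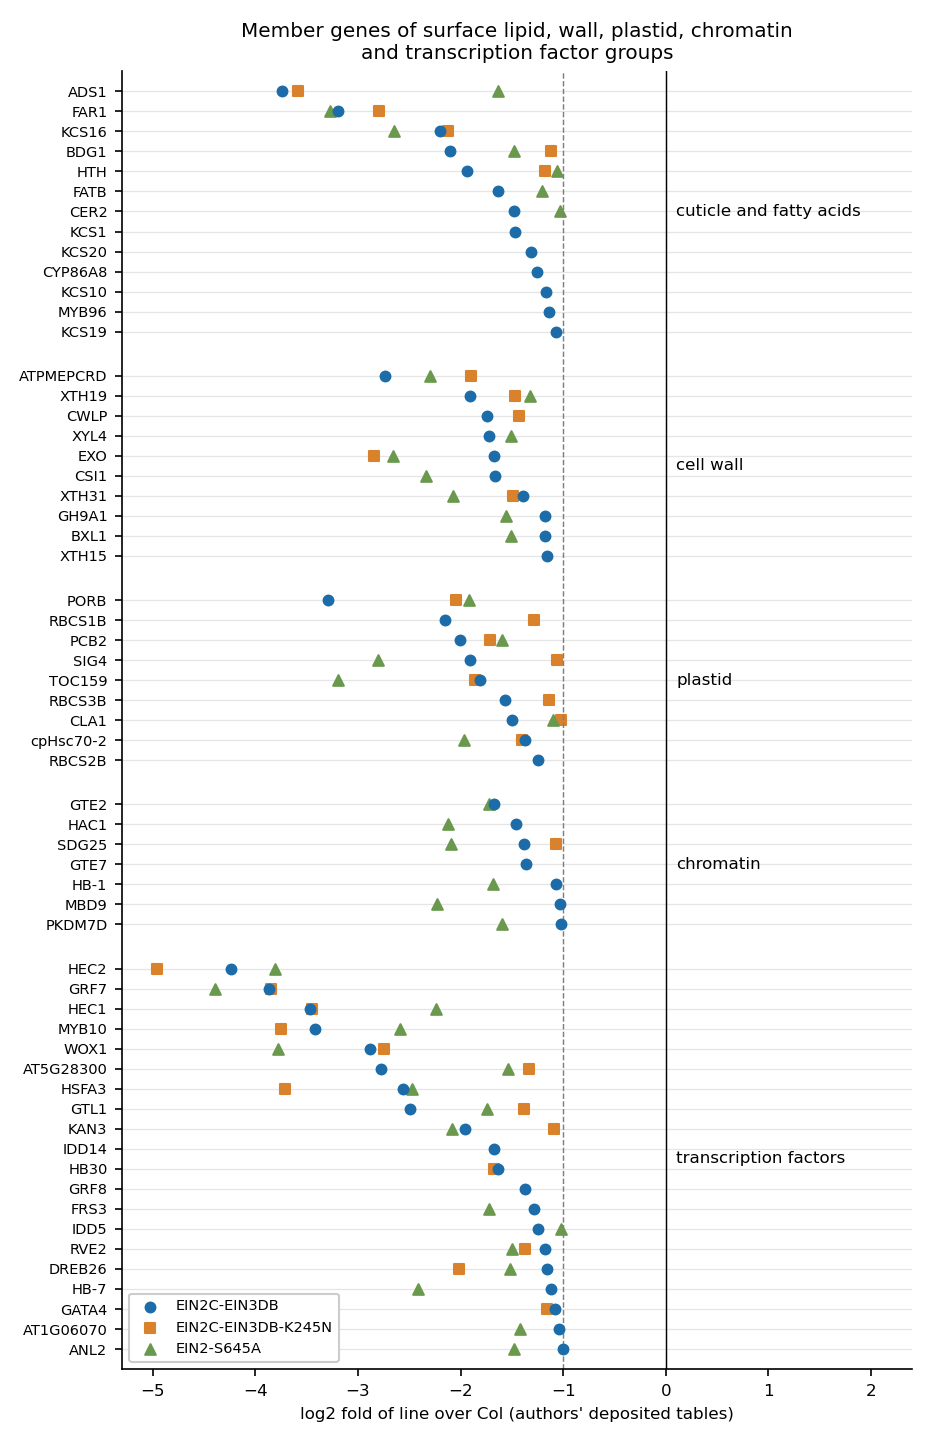
Log2 fold over Col (horizontal axis, authors' deposited tables) of member genes of the surface lipid, cell wall, plastid, chromatin and transcription factor groups, with symbols for the 3 lines as in the legend. A missing symbol means that the gene was not listed in that table or stood at 0 FPKM, and CYP96A5 is not drawn. Chromatin genes have 1 square among 7 genes and triangles at lower values than the circles for most.

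Further members belonged to transport, cytokinin and defence. ABCG1, an ABC transporter gene, stood at log2 -2.58, -3.20 and -1.56 in EIN2C-EIN3DB, EIN2C-EIN3DB-K245N and EIN2-S645A in the authors' deposited tables, and its deposited locus is shared with SAC3A. The cytokinin response gene ARR3 and the cytokinin-degrading gene CKX5 stood at -2.08 and -2.03 in the authors' deposited table for EIN2C-EIN3DB and in neither other table. AZI1, a defence priming gene, had 34.6 FPKM in EIN2C-EIN3DB, 2.49 FPKM in EIN2C-EIN3DB-K245N and 3.62 FPKM in EIN2-S645A, at -2.53, -5.92 and -5.42 in the authors' deposited tables. SAG101, which acts with EDS1 in immunity, stood at -1.34 in EIN2C-EIN3DB alone in the authors' deposited table. MIR156c, the gene of a microRNA that holds plants in the juvenile phase, had 4 peaks and stood at -1.25 in EIN2C-EIN3DB and -1.02 in EIN2C-EIN3DB-K245N per the authors' deposited tables. On the immunity list of 43 genes, 9 were lower and 3 higher in EIN2C-EIN3DB, and 2 of the lower genes had a peak. On that list the symbol PEN1 was matched to AT4G15340, a triterpene synthase gene, and not to the syntaxin gene of the same name. On the list of other hormones, with 59 genes, 8 were lower and 3 higher, and none of the lower genes had a peak. On the list of heat and other stress, with 34 genes, 8 were lower and 8 higher, and the lower genes HSFA3 and ATHSP22.0 had a peak. On the clock list of 23 genes, 5 were lower and 4 higher, and the lower gene TIC had a peak. Beside the counts of lower genes with a peak on these lists stands the share over all nuclear genes lower in EIN2C-EIN3DB, 9.54%.

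Most members, like most nuclear genes lower in EIN2C-EIN3DB, were also listed lower in another line. In EIN2C-EIN3DB-K245N 141 members (52.8%) were listed lower, against 41.5% of all nuclear genes lower in EIN2C-EIN3DB, none was listed higher (0.0715% of all) and 126 were not listed. In EIN2-S645A 178 members (66.7%) were listed lower, against 65.8%, 4 were listed higher, against 1% of all, and 85 were not listed. All 3 tables listed 107 members as lower (40.1%, against 32.5%), and 55 members (20.6%, against 25.2%) were lower in EIN2C-EIN3DB alone. Another 34 (12.7%) were shared with EIN2C-EIN3DB-K245N alone, against 8.61% of lower genes without a peak. With EIN2-S645A alone 71 (26.6%) were shared, against 34.0%. Since the tables share Col, these counts are descriptions, and a gene that is not listed may have missed a limit of fold, level or q. Median log2 folds over the members listed lower were -1.62 in EIN2C-EIN3DB-K245N and -1.75 in EIN2-S645A in the authors' deposited tables, with members at 0 FPKM left out.

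The 4 classes of members had different medians of level and length, which were not tested. The 107 members lower in all 3 lines had a median log2 fold of -1.93 in EIN2C-EIN3DB in the authors' deposited table and a median locus of 2536 bp. The 71 shared with EIN2-S645A alone had a median of -1.25 in the authors' deposited table and the longest loci, with a median of 3585 bp. The 34 shared with EIN2C-EIN3DB-K245N alone had the shortest loci, with a median of 1400 bp, and a median of 25.8 FPKM in EIN2C-EIN3DB. The 55 lower in EIN2C-EIN3DB alone had a median locus of 2346 bp and a median of 21.5 FPKM in that line. Median levels in EIN2C-EIN3DB were 15.7 FPKM for the 107 members and 12.7 FPKM for the 71.

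Of the 267 members, 4 went the other way in EIN2-S645A, against 28 (1%) of all 2799 nuclear genes lower in EIN2C-EIN3DB. P1R3 had 43.9 FPKM in EIN2C-EIN3DB and 417 FPKM in EIN2-S645A, at log2 -1.52 and 2.09 in the authors' deposited tables. RGF6, a root growth factor peptide gene, had 87.6 FPKM and 507 FPKM in these lines, at -1.11 and 1.79 in the authors' deposited tables. AT5G24570 had 63.0 FPKM in EIN2C-EIN3DB, 28.0 FPKM in EIN2C-EIN3DB-K245N and 293 FPKM in EIN2-S645A, at -1.02, -1.78 and 1.56 in the authors' deposited tables. GER3 had 752 FPKM in EIN2C-EIN3DB and 2433 FPKM in EIN2-S645A, at -1.04 and 1.02 in the authors' deposited tables. Their loci were short, between 452 and 890 bp.

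In Col-0, 66 members had an ethylene peak that overlapped a peak of the library titled air. These were 67 of the 391 member peaks (17.1%), against 21.5% of all 1510 ethylene peaks. In 55 of the 67 the fold enrichment was higher in the ethylene library, and among the other 258 overlapping peaks it was higher in 151. Fold enrichments were 13.6 and 4.69 (ethylene and titled air) at EXO, 11.2 and 3.52 at AT5G01210, 9.41 and 3.96 at CWLP, 7.74 and 3.27 at EBF2, and 7.28 and 2.91 at TEM1. CST went the other way with 4.89 in ethylene and 9.36 in the library titled air. The 2 libraries differ in depth and hold no replicate, so a member without an air peak may have been below the peak limit there. Strength moved with the overlap: 60.0% of member peaks with a -log10 p of 10 or more overlapped an air peak, against 74.2% of the other peaks of that strength. Between 5 and 10 these shares were 12.8% and 20.7%, and between 3 and 5 they were 8.50% and 8.19%.

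**Figure D5:**
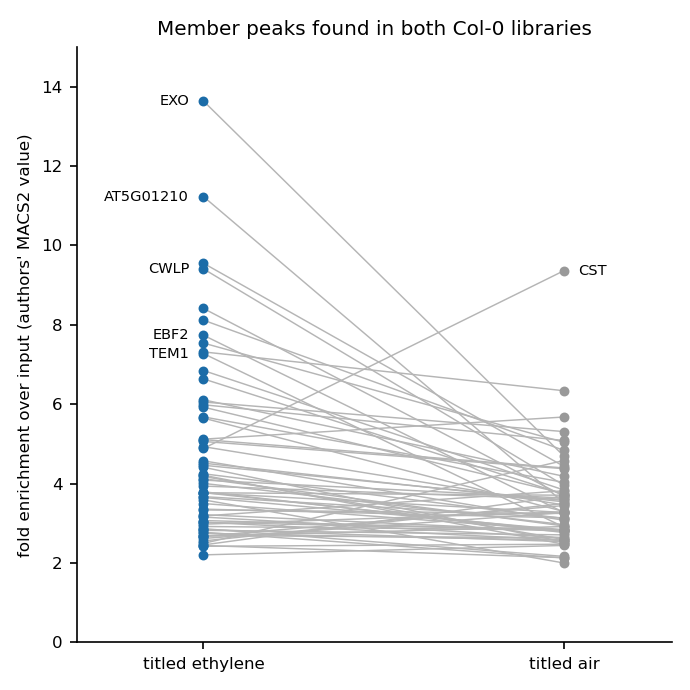
Fold enrichment over input (vertical axis, the authors' MACS2 value) of the 67 member peaks found in both Col-0 libraries, with a line joining the ethylene and titled-air value of each peak. Named peaks at EXO, AT5G01210, CWLP, EBF2 and TEM1 stand high on the ethylene side, and CST stands at 9.36 on the air side.

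In ein3-1 eil1-1 few member peaks were found again. The lists there hold at most 275 peaks each, against 1510 in the Col-0 ethylene list, which limits how many could overlap. The 2 ethylene replicates overlapped 1.53% and 1.79% of member peaks, against 5.89% and 6.29% of all Col-0 ethylene peaks. The 2 air replicates overlapped 3.84% and 3.84% of member peaks, against 6.42% and 6.95%. Both ethylene replicates had an overlapping peak at 5 members, EIN2, EIN3, EBF2, PBRP and AT4G36648, which are 6 of 391 member peaks (1.53%), against 5.3% of all peaks. Both air replicates had one at 12 members, 2.81% of member peaks, against 4.9%. EBF2 had fold enrichments of 4.89 and 3.98 in the ethylene replicates and 3.302 and 3.28 in the air replicates of ein3-1 eil1-1. PBRP, a TFIIB-related gene, and the neighbouring noncoding RNA gene AT4G36648 shared 1 peak, 2160 bp outside the PBRP locus, with 3.11 and 2.78 in ethylene and 3.04 and 2.70 in air. EIN3 had 1.82 and 2.39 in ethylene and 2.03 and 1.62 in air. The ethylene values exceeded both air values at EBF2 and overlapped them at EIN3, with 2 libraries each and no test. EBF1, IAGLU and EXO had no ein3-1 eil1-1 peak in both replicates of either treatment. Whether the replicates were grown separately is not labelled, so their spread may be technical.

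Some members were counted through shared sequence. A peak was shared by 42 members with at least 1 other member, such as EBF1 and AT2G25482, CTR1 and HSFA3, and PBRP and AT4G36648. The deposited table gave 10 members the same locus as another member, in 5 pairs such as NPH3 and SAC51, so their positions rest on merged spans. At 32 members the deposited locus was over 1000 bp longer than the RefSeq gene. Peaks shared by a member and a gene listed higher numbered 16, at 15 members. By chromosome, 64, 37, 43, 47 and 76 members lay on chromosomes 1 to 5. Of the 267 members, 256 were protein-coding and 149 had a gene symbol in RefSeq.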

How the data were processed

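The 16 samples are 6 RNA-seq libraries, 6 ChIP-seq libraries and 4 inputs. RNA levels are FPKM, which the authors deposited as 1 pooled value per line beside a Col value. The deposited tables hold the authors' log2 fold and q-value from Cuffdiff 2.2.1 (submitters' processing notes). Every listed gene has at least a 2-fold change and a q under 0.05, and a level limit of 1 is given by the deposited files' names. Each table was scaled separately, so levels are not compared between tables by test. The K245N table gives the line first, and its sign was turned to line over Col. The 3 columns of Col values were not used. The RNA aligner was not given in the sources used here. The notes also name BWA, with no role, and TAIR10.

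Peaks were called by the authors against input for each library with MACS2 2.1.0.20150603 (p 0.001, 1 tag per position), per the file headers. The deposited pileup, −log10 p and fold enrichment are the authors' values per peak. Duplicates were dropped before pileup, which limits the pileup of strong peaks.

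Members were found with Python 3.11.15, pandas 2.3.3, numpy 2.4.6 and scipy 1.17.1, and plotted with matplotlib 3.10.9. The window search was tested on simulated data. Intervals of shares are exact (Clopper-Pearson) at 95% and cover counting error only. No test was run, since each line has 1 pooled value and the members were chosen on these values. Gene names come from RefSeq (TAIR10.1), matched for 267 of 267 members. No RefSeq coordinates are printed. Named genes were the members with the lowest folds or strongest peaks, those on gene lists, those just inside the limits, those with peaks in ein3-1 eil1-1, and those listed higher elsewhere. Members of the functional groups outside these were named after their values were seen. The members, lists and functional groups were chosen with earlier results of these data known. One EIN2-S645A label spells the allele differently, and one air replicate's description names the first replicate's file, so it was mapped by the file header. One member is counted throughout, but its own values are not reported here.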

Additional observations from a re-analysis of the deposited data

Results flagged for a closer look

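Of the 2799 nuclear genes lower in EIN2C-EIN3DB, 28 (1%) were listed higher than in Col in EIN2-S645A. Among these were 4 of the 267 members. Their log2 folds in EIN2-S645A in the authors' deposited table were 2.09 for P1R3, 1.79 for RGF6, 1.56 for AT5G24570 and 1.02 for GER3. In EIN2C-EIN3DB they were -1.52, -1.11, -1.02 and -1.04 in the authors' deposited table. AT5G24570 was also lower in EIN2C-EIN3DB-K245N, at -1.78 in the authors' deposited table, and the other 3 were not listed there. Each line has 1 pooled value per gene, and the difference between the lines was not tested.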

How the results depend on the processing

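No paired analysis was possible because each line has 1 pooled RNA value and replicate numbers of ChIP libraries enter no fit. The count of 267 members and the shares of lower and higher genes with a peak (9.54% and 4.58%) depended on the window and limits. They came to 160, 5.72% and 2.395% without a window, 8.003% and 3.54% at 500 bp (224 members) and 11.4% and 6.47% at 2000 bp (319 members). They came to 170, 6.07% and 2.97% for peaks with a -log10 p of at least 5, 66, 2.36% and 0.787% for a fold enrichment of at least 4, and 70, 13.9% and 5.64% for a log2 fold of 2 in size. For lower genes with at least 5 FPKM the share was 12.7%. Under the alternatives run, the share of lower genes was between 1.76 and 3.00 times that of higher genes. Leaving out loci over 1000 bp longer than in RefSeq, or peaks in regions of high input, were chosen after seeing the data and gave 235 and 254 members. Overlap with the Col-0 library titled air fell to 28 members when 50% of the peak had to be covered and to 39 at a -log10 p of at least 5, against 66. For both ein3-1 eil1-1 ethylene replicates 50% cover gave 1 member, and either replicate alone gave 5 to 6, against 5. For both air replicates these were 0 and 15 to 16, and 6 at a -log10 p of at least 5, against 12. Members lower in EIN2C-EIN3DB-K245N numbered 47 at a log2 fold of 2 in size, 87 of 160 without a window and 88 of 170 at a -log10 p of at least 5, against 141. In EIN2-S645A they numbered 74, 104 and 107, against 178. The share of members with a summit inside the locus moved little. The search of promoters for motifs was not run. Depth limits the comparison of the Col-0 libraries, and duplicates limit both.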
